A study of Homo sapiens with 36 samples.

Results

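The transcripts of 10 regulators of apoptosis from the BCL2 family and its BH3-only partners were followed in 4 cell lines of human non-small cell lung cancer given an aptamer against EGFR. The genes were BMF, BBC3, BCL2L11, PMAIP1, BIK, BCL2, BCL2L1, MCL1, BAX and BAK1. They were chosen by gene name, with earlier results of these data known, and all 10 were found among the 66366 named genes of each expression file. Per the labels, EGFR is wild-type in A549, L858R in H3255, L858R together with T790M in H1975, and deleted in part of exon 19 together with T790M in H820. Each line was given MinE07, an aptamer made of RNA (a short strand whose fold recognises a protein) directed at EGFR, C36, a control aptamer in an extended form, or vehicle, which was DPBS with magnesium. Aptamers were used at 3 µM, treatment lasted 24 h, and each of the 12 groups had 3 libraries, 36 in all. All groups were treated in 1% serum, in RPMI except A549, which had DMEM, so that for A549 medium and line cannot be told apart. Each EGFR genotype is represented by 1 cell line, so genotype and the rest of the line's background cannot be told apart.

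The BCL2 family controls whether the mitochondrial outer membrane stays intact. BAX and BAK1 are the effectors that form pores in it, BCL2, BCL2L1 (whose long product is BCL-XL) and MCL1 are guardians that hold effectors and BH3-only proteins in check, and the BH3-only proteins BMF, BBC3 (PUMA), BCL2L11 (BIM), PMAIP1 (NOXA) and BIK tip the balance towards pore formation. In EGFR-mutant lung cancer cells BIM is known as a mediator of the death that follows EGFR inhibition, and BCL-XL and MCL1 as guardians that can limit it. Expression was measured as FPKM, fragments scaled by gene length and by the mapped fragments of the library, so levels of genes within a library can be set side by side. Between libraries, and above all between lines, such values depend on the scaling, as the rescaling by medians of ratios below shows. A gene-level FPKM sums all isoforms, so long and short BCL2L1 or MCL1 products, which can differ in function, are not separated.

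The lines carried the markers of epithelial cells: all 6 epithelial markers were above 1 FPKM in every line, while the 3 endothelial markers were below that level in every line. Of 4 fibroblast markers, 1 was above it in H3255, H1975 and H820 (summed level up to 46.6 FPKM, in H820), and of 3 immune markers 1 was above it in every line (summed level up to 96.6 FPKM, in A549). Of the 3 lung epithelial markers, 3 were above 1 FPKM in H3255, 1 each in H1975 and H820, and none in A549, where they summed to 0.158 to 0.287 FPKM. EGFR, the target of the aptamer, averaged 419 FPKM in vehicle-treated H3255 against 26.1 in H1975. Relative sequencing depth spanned a 2.35-fold range over the 36 libraries, and absolute depth is unknown because no read counts are given. The first and second H820 MinE07 libraries list the mitochondrial genes COX1, ND4, ND4L and RNR2 at 0. COX1 is at 0 in 7 of the 36 libraries, the other mitochondrial genes named only in these 2. Leaving out either of these H820 MinE07 libraries left the count of called family members in H820 with MinE07 against C36 at 0. In whole-culture RNA, fewer cells of a kind and less RNA per cell cannot be told apart.

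The BH3-only genes BMF, BBC3 and BCL2L11 were called higher with MinE07 than with C36 in both L858R lines, BCL2L11 in H1975 only just under the threshold, and the 250 bases upstream of their RefSeq transcription starts (GRCh38.p14) are shown for that reason. Capitals mark matches, on either strand, to 3 motifs: the FOXO motif GTAAACA, the E-box CACGTG and the GC box GGGCGG. BMF has a pair of annotated starts, at chr15:40108880-40109129 and, inside the gene, chr15:40106967-40107216, both on the minus strand. The BBC3 window is chr19:47232668-47232917 (minus strand) and the BCL2L11 window chr2:111120664-111120913 (plus strand).
BMF, outer start: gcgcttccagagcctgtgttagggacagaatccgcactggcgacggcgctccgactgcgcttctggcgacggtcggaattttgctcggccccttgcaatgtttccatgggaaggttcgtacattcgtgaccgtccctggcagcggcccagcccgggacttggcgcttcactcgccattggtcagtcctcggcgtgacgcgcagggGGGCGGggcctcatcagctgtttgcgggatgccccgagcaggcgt
BMF, inner start: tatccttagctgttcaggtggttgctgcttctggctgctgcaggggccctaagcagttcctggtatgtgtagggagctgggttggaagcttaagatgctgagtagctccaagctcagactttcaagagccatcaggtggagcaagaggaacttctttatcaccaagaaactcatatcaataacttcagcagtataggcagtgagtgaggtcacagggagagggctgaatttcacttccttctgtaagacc
BBC3: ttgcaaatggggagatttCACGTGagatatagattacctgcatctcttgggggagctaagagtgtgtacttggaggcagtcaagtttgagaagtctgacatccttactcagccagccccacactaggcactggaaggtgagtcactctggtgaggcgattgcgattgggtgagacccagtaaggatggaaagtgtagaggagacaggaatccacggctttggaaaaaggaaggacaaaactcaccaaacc
BCL2L11: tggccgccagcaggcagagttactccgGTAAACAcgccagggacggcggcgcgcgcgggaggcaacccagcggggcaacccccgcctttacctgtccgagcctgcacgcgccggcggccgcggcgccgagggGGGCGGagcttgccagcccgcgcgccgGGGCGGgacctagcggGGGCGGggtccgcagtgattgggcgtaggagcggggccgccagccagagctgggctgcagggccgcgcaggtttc
The BCL2L11 window holds the 1 FOXO match among the members' windows, 223 bases before the start, and 3 GC boxes. The BBC3 window holds 1 E-box, 232 bases before the start, and the outer BMF window 1 GC box, 45 bases before it. The inner BMF window holds none of the 3 motifs. Over 35116 human windows of the same length, 2.98% hold the FOXO motif, 6.34% the E-box and 42.6% the GC box. A match is only a match of letters and was not tested as a binding site.

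The lines differed widely in their starting levels. In vehicle, BMF, whose product binds dynein light chains until released, averaged 19.0 ± 0.0712 FPKM in H3255 (SD, n = 3), 11.5 ± 0.249 in H820, 2.70 ± 0.272 in H1975 and 0.280 ± 0.0294 in A549, with no overlap between any pair of lines. The BMF difference between H3255 and A549 was 4.65 on the log2(FPKM + 0.5) scale, where the pseudocount flattens the low A549 level. BMF passed the filter over the 12 vehicle libraries only through the other lines, so no test against A549 is read from it. BBC3 ran in another order, with 10.7 ± 0.210 FPKM in A549, 4.91 ± 0.370 in H3255, 2.72 ± 0.327 in H820 and 2.15 ± 0.235 in H1975. The 3 H1975 libraries for BBC3 (1.94, 2.40 and 2.11) overlapped the H820 libraries (2.35, 2.98 and 2.83), although limma called that difference as well (adjusted p = 0.00665).

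BCL2L11 was highest in H820 (9.77 ± 0.688 FPKM) and H3255 (8.89 ± 0.518), which did not pass the test against each other (adjusted p = 0.111), and lower in H1975 (4.61 ± 0.394) and A549 (3.97 ± 0.285). PMAIP1 was lowest in H3255 (3.90 ± 0.506 FPKM) and higher in H820 (11.4 ± 0.394), A549 (15.7 ± 2.39) and H1975 (17.2 ± 0.421). The difference in PMAIP1 between H1975 and A549 did not pass (adjusted p = 0.202). BIK averaged 3.77 ± 0.365 FPKM in H3255, 2.22 ± 0.280 in H820, 0.597 ± 0.0825 in H1975 and 0.350 ± 0.0843 in A549. Pools, sums and shares here cover the 10 listed genes only. Related genes outside the list include BAD and BID, which averaged 34.0 and 27.5 FPKM over the 9 H3255 libraries. The make-up of the listed BH3-only pool differed by line: by share of its summed FPKM in vehicle, BMF held 47.0% in H3255, PMAIP1 held 63.1% in H1975 and 50.4% in A549, and H820 was split between BMF (30.6%), PMAIP1 (30.4%) and BCL2L11 (25.9%).

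Among the guardians, BCL2 transcript was close to nothing in every line. It was at most 0.103 FPKM in any H3255 library and 0.0391 in any H820 library, where 2 C36 libraries list it at 0. In H1975 it ran from 0.349 to 0.545 FPKM and in A549 from 0.398 to 0.577, so it was below the level required for testing everywhere. The pool of the 3 listed guardians consisted almost wholly of BCL2L1 and MCL1. BCL2L2, a guardian outside the list, averaged 13.9 FPKM over the 9 H3255 libraries. BCL2L1 averaged 123 ± 4.01 FPKM in vehicle-treated A549, 95.4 ± 2.28 in H3255, 47.9 ± 0.775 in H1975 and 24.1 ± 1.16 in H820, and all 6 pairs of lines differed by limma. MCL1, which encodes a protein with a rapid turnover, was nearly level, at 66.8 ± 1.67 FPKM in H1975, 56.0 ± 1.53 in H820, 54.7 ± 3.00 in H3255 and 51.9 ± 1.16 in A549. H3255 did not pass the test for MCL1 against H820 (adjusted p = 0.446) or A549 (adjusted p = 0.123). By share, BCL2L1 made up 70.2% of the pool in A549 and MCL1 69.9% of it in H820.

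Of the 2 listed effectors, BAX was the more abundant in every line. BAX averaged 82.5 ± 1.84 FPKM in A549, 57.9 ± 1.60 in H820, 28.7 ± 0.869 in H3255 and 28.4 ± 1.82 in H1975, the last pair not passing the test (adjusted p = 0.741). BAK1 had the opposite extreme in A549, with 7.41 ± 0.371 FPKM there, 10.6 ± 0.110 in H1975, 13.5 ± 0.281 in H3255 and 14.9 ± 0.369 in H820. BAX thus made up 91.8% of the effector pool in A549 and 68.0% in H3255. Of the 9 members tested, limma called 8 for H3255 against H1975, 7 for H3255 against H820, 8 for H3255 against A549, 9 for H1975 against H820, 8 for H1975 against A549 and 9 for H820 against A549. The share called over all 14523 genes was 84.3%, 84.7%, 85.7%, 82.1%, 82.8% and 83.8% in the same order, so the members differed between lines about as often as genes at large. The member counts include BMF, under 1 FPKM in A549, and BIK, under 1 FPKM in A549 and H1975. Both passed the filter only through the other lines. As deposited, the median gene was 0.19 higher in H1975 than in A549 and 0.15 higher than in H820 on the log2 scale. Rescaling by medians of ratios removed those offsets, and the BCL2L11 difference of 0.19 between H1975 and A549 (adjusted p = 0.0266) then turned to -0.0084 (adjusted p = 0.919). The BAX difference between H3255 and H1975 moved from 0.02 to 0.22 and was then called (adjusted p = 0.000365). MCL1 lost its calls for H3255 against H1975 (adjusted p = 0.0799), H1975 against H820 (adjusted p = 0.114) and H820 against A549 (adjusted p = 0.118) with the same rescaling. The 0.19 for BCL2L11 also lost its call without A549 vehicle replicate 2 or 3 or H1975 vehicle replicate 2 or 3 (adjusted p up to 0.108), while PMAIP1 was called between H1975 and A549 without A549 vehicle replicate 1 (0.26, adjusted p = 0.00770).

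**Figure D1:**
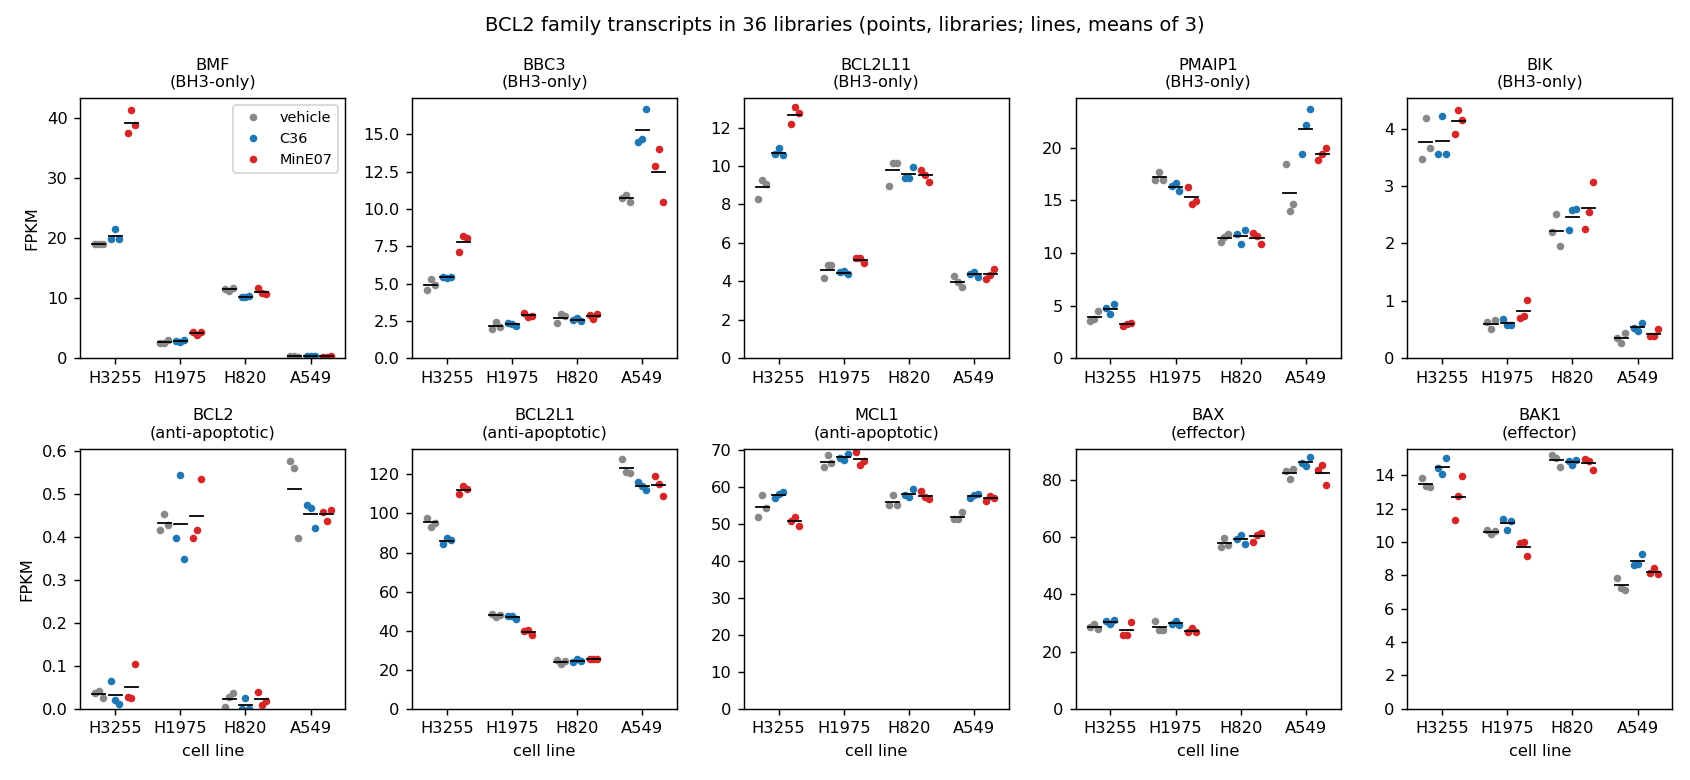
FPKM of the 10 genes in each of the 36 libraries, by cell line and treatment, with 1 linear axis per gene starting at 0. Points are libraries and short lines are means of 3 libraries. The 3 H3255 MinE07 libraries stand at 37.5 to 41.3 FPKM for BMF, above all other libraries, and BCL2 reaches at most 0.577 FPKM in any library.

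Within each line MinE07 was set against C36 to ask which changes go with the EGFR-directed aptamer and not with an aptamer as such. In H3255, 7 of the 9 members tested were called by limma, 4 higher and 3 lower, where 36.7% of all genes tested were called in that line, 16.6% higher and 20% lower. The higher ones were the BH3-only genes BMF, BBC3 and BCL2L11 together with the guardian BCL2L1. The lower ones were the BH3-only gene PMAIP1, the guardian MCL1 and the effector BAK1, so each class except the effectors held changes in both directions. The median change over the 9 was 0.12 on the log2(FPKM + 0.5) scale against -0.01 over all genes.

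BMF had the largest change of the family. In H3255 it stood at 19.1, 18.9 and 19.0 FPKM in vehicle, 19.9, 21.6 and 19.8 with C36, and 37.5, 41.3 and 38.7 with MinE07. The MinE07 libraries lay far above both other groups, which lay close together. The change against C36 was 0.92 (log2, SE 0.043, 95% confidence interval 0.83 to 1.02, adjusted p = 2.69e-07), a 1.90-fold difference, and against vehicle 1.02 (adjusted p = 1.38e-07). In H1975 BMF stood at 2.54, 2.54 and 3.01 FPKM in vehicle, 2.93, 2.64 and 3.05 with C36, and 4.29, 3.90 and 4.29 with MinE07. All MinE07 libraries were again above all others, with a change against C36 of 0.47 (log2, SE 0.071, adjusted p = 0.00191) and against vehicle of 0.55 (adjusted p = 0.000862).

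BMF was not called in H820 and was too low to test in A549, and the H820 response was not tested against that of the L858R lines. In H820 it stood at 11.5, 11.3 and 11.8 FPKM in vehicle, 10.1, 10.2 and 10.4 with C36, and 11.6, 10.8 and 10.7 with MinE07. The MinE07 and vehicle libraries overlapped and the C36 libraries were below both, and the difference of 0.10 between MinE07 and C36 was not called (adjusted p = 0.398). In A549 all 9 libraries lay between 0.243 and 0.352 FPKM, under the level for testing within that line.

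BBC3 encodes PUMA, which can bind every guardian of the family. In H3255 it was at 4.56, 5.30 and 4.87 FPKM in vehicle, 5.45, 5.39 and 5.43 with C36, and 7.11, 8.22 and 8.04 with MinE07. The MinE07 libraries did not overlap either group. BBC3 rose by 0.48 against C36 (log2, SE 0.061, adjusted p = 0.000184) and by 0.62 against vehicle (adjusted p = 3.36e-05). In H1975 the values were 1.94, 2.40 and 2.11 FPKM in vehicle, 2.36, 2.31 and 2.15 with C36, and 3.02, 2.79 and 2.80 with MinE07. BBC3 rose there by 0.28 against C36 (log2, adjusted p = 0.0171), a call lost without C36 replicate 3 (adjusted p = 0.0607), without MinE07 replicate 1 (adjusted p = 0.0604) or with no filter on low genes (adjusted p = 0.0687). Against vehicle it rose by 0.35 (adjusted p = 0.00557).

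BCL2L11 encodes BIM. In H3255 it stood at 8.30, 9.29 and 9.06 FPKM in vehicle, 10.6, 10.9 and 10.6 with C36, and 12.2, 13.1 and 12.8 with MinE07. The 3 groups did not overlap and formed a ladder, with C36 between vehicle and MinE07. The step from C36 to MinE07 was 0.23 (log2, SE 0.045, adjusted p = 0.00255) and the step from vehicle to MinE07 0.49 (adjusted p = 2.15e-05). The step from vehicle to C36, 0.26, missed the threshold in the fit of this line (adjusted p = 0.0525) and passed it in a fit of all 36 libraries (adjusted p = 0.00723). In H1975 BCL2L11 was at 4.15, 4.84 and 4.82 FPKM in vehicle, 4.46, 4.51 and 4.39 with C36, and 5.20, 5.22 and 4.94 with MinE07. The change against C36 was 0.18 (log2, adjusted p = 0.0458), and leaving out any 1 of 7 of the 9 H1975 libraries (each C36 and MinE07 library, and vehicle replicate 3) ended the call, with adjusted p up to 0.118, as did fitting with no filter on low genes (adjusted p = 0.145). Against vehicle it did not pass (0.14, adjusted p = 0.0972).

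PMAIP1 encodes NOXA, which binds MCL1 and promotes its breakdown. In H3255 it moved opposite to the other 3 called BH3-only genes, from 3.52, 3.69 and 4.47 FPKM in vehicle and 4.73, 4.21 and 5.17 with C36 to 3.09, 3.24 and 3.34 with MinE07. The MinE07 libraries were the 3 lowest. PMAIP1 fell by 0.48 against C36 (log2, SE 0.086, adjusted p = 0.00169), while the difference from vehicle of -0.23 missed the threshold (adjusted p = 0.0534). It passed with a pseudocount of 0.1 (adjusted p = 0.0499), after rescaling by medians of ratios (adjusted p = 0.0216), when all 36 libraries were fitted together (adjusted p = 0.0242), and without C36 replicate 2 (adjusted p = 0.0399), C36 replicate 3 (adjusted p = 0.0451) or vehicle replicate 1 (adjusted p = 0.0330). In H1975 the means were 17.2 ± 0.421 FPKM in vehicle, 16.3 ± 0.350 with C36 and 15.3 ± 0.875 with MinE07. There the difference from vehicle was called (-0.16, adjusted p = 0.019), the one from C36 was not (-0.09, adjusted p = 0.159), except without MinE07 replicate 1 (-0.13, adjusted p = 0.0356). The H1975 call against vehicle was lost without MinE07 replicate 2 (adjusted p = 0.0648), MinE07 replicate 3 (adjusted p = 0.0676) or vehicle replicate 2 (adjusted p = 0.0665).

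BIK, the remaining BH3-only gene, did not pass in H3255, with 3.78 ± 0.383 FPKM on C36 and 4.14 ± 0.212 on MinE07 (log2 difference 0.12, adjusted p = 0.263). In H1975 BIK was too low to test, with 0.613 ± 0.0591 FPKM on C36 and 0.819 ± 0.168 on MinE07, and its MinE07 libraries did not overlap those of C36. Across the BH3-only class the summed level in H3255 was 40.5 ± 1.34 FPKM in vehicle, 45.0 ± 1.15 with C36 and 67.0 ± 3.19 with MinE07. BMF accounted for 47.0%, 45.3% and 58.5% of it in these groups. In H1975 the sum was 27.2 ± 0.939, 26.5 ± 0.371 and 28.3 ± 1.12 FPKM, where BMF rose from 10.8% of it with C36 to 14.7% with MinE07 and PMAIP1 went from 61.5% to 54.1%.

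**Figure D2:**
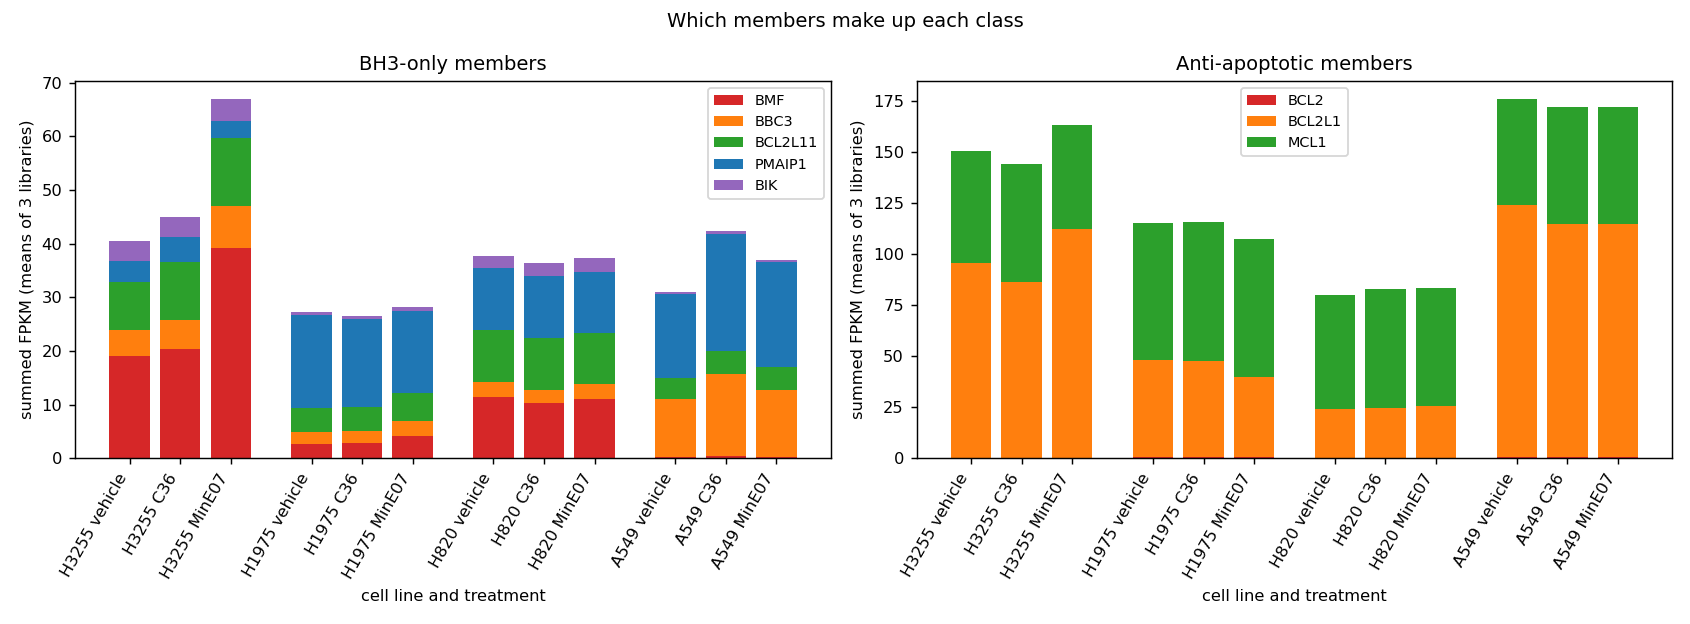
Summed FPKM of the 5 BH3-only genes (left) and the 3 anti-apoptotic genes (right) for the 12 combinations of line and treatment, stacked by gene from means of 3 libraries on linear axes from 0. The BH3-only stack of H3255 with MinE07 reaches 67.0 FPKM, mostly BMF. PMAIP1 is the largest BH3-only block in H1975 and A549.

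The guardian BCL2L1 moved in opposite directions in the L858R lines. In H3255 it stood at 97.8, 93.3 and 95.1 FPKM in vehicle, 84.1, 87.6 and 86.2 with C36, and 110, 114 and 112 with MinE07. The groups did not overlap: MinE07 was the highest and C36 the lowest. BCL2L1 rose by 0.38 against C36 (log2, SE 0.031, adjusted p = 1.03e-05) and by 0.23 against vehicle (adjusted p = 0.000254). The lower level with C36 than with vehicle (-0.15) was not called in the fit of H3255 (adjusted p = 0.0786) but was called in the fit of all libraries (adjusted p = 0.0162). In H1975 BCL2L1 stood at 48.6, 47.0 and 48.0 FPKM in vehicle, 47.7, 47.4 and 46.2 with C36, and 40.0, 40.5 and 37.9 with MinE07. The MinE07 libraries were the 3 lowest. BCL2L1 fell there by 0.25 against C36 (log2, SE 0.032, adjusted p = 0.000743) and by 0.28 against vehicle (adjusted p = 0.000507).

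MCL1 changed only slightly. In H3255 it was at 51.9, 57.9 and 54.2 FPKM in vehicle, 57.0, 58.1 and 58.5 with C36, and 50.7, 51.8 and 49.4 with MinE07. MinE07 libraries lay below all C36 libraries, and just below the lowest vehicle library. MCL1 fell by 0.19 against C36 (log2, SE 0.040, adjusted p = 0.00396), and the difference of -0.11 from vehicle missed the threshold (adjusted p = 0.0546) and passed it when all 36 libraries were fitted together (adjusted p = 0.00614). Leaving out vehicle replicate 1 had the same effect (adjusted p = 0.0178). In H1975 it averaged 68.0 ± 0.735 FPKM with C36 and 67.4 ± 1.76 with MinE07 (log2 difference -0.01, 95% confidence interval -0.08 to 0.06, adjusted p = 0.821). The anti-apoptotic sum in H3255 went from 144 ± 2.37 FPKM with C36 to 163 ± 2.84 with MinE07, and in H1975 from 115 ± 0.421 to 107 ± 2.24.

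Of the effectors, BAK1 was called lower with MinE07 than with C36 in both L858R lines, in H3255 with a call that rested on single libraries, and BAX was called in neither. In H3255 BAK1 was at 14.4, 14.1 and 15.0 FPKM with C36 and 11.3, 12.7 and 14.0 with MinE07, with 13.3 to 13.8 in vehicle. The change of -0.19 against C36 was called (log2, SE 0.063, adjusted p = 0.0335), but the call ended without C36 replicate 1, 2 or 3 or MinE07 replicate 1 or 2 (adjusted p up to 0.109) and with no filter on low genes (adjusted p = 0.137). In H1975 BAK1 was at 11.4, 10.7 and 11.3 FPKM with C36 and 9.95, 9.97 and 9.17 with MinE07, a change of -0.19 (SE 0.040, adjusted p = 0.0093) with no overlap. BAX did not pass in H3255 (-0.15, adjusted p = 0.0636) or H1975 (-0.13, adjusted p = 0.0714). In H3255 it was called after rescaling by medians of ratios (adjusted p = 0.0337), when all 36 libraries were fitted together (adjusted p = 0.0130) and without MinE07 replicate 3 (-0.23, adjusted p = 0.00133), the MinE07 library with the highest BAX (30.5 FPKM against 25.9 and 26.0), and in H1975 without vehicle replicate 1 (adjusted p = 0.0149). Without MinE07 replicate 3 the H3255 differences from vehicle were called as well, -0.14 for BAX (adjusted p = 0.0122) and -0.16 for BAK1 (adjusted p = 0.0358).

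In all, 5 of the 8 members tested in H1975 were called against C36, where 19.9% of all genes were called, 3 higher (BMF, BBC3 and BCL2L11, with 8.88% of genes higher) and 2 lower (BCL2L1 and BAK1, with 11.1% lower). The count was 3 without C36 replicate 3. Against vehicle, 4 of 9 members were called in H3255 (BMF, BBC3, BCL2L11 and BCL2L1, all higher), where 38.6% of genes were called, 21.4% higher. Of all genes called there, 55.4% were higher as deposited and 39.3% after rescaling by medians of ratios. After rescaling by medians of ratios 6 were called, 4 higher and 2 lower, the added ones being PMAIP1 (adjusted p = 0.0216) and MCL1 (adjusted p = 0.0076). In H1975, 5 of 8 were called against vehicle (BMF and BBC3 higher, PMAIP1, BCL2L1 and BAK1 lower) and 23.7% of all genes. The BAK1 call in H1975 against vehicle (-0.12, adjusted p = 0.0466) was lost on leaving out any 1 of the 9 libraries. The comparisons with C36 and with vehicle share the MinE07 libraries and are not independent of each other.

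In H820 and A549 no member was called for MinE07 against C36. In H820, limma called 0 of 9 tested, with 1 at an unadjusted p under 0.05 (BMF), and 0.0364% of all genes were called. In A549 it called 0 of 7, with 1 at an unadjusted p under 0.05 (BBC3), and 0% of all genes were called. For counts at an unadjusted p, here and below, the share of all genes at that level was not computed. The 95% confidence intervals show what sizes remained possible on the log2 scale. In H820 they ran from -0.12 to 0.10 for BCL2L11, from -0.04 to 0.13 for BCL2L1, from 0.02 to 0.18 for BMF, from -0.04 to 0.29 for BBC3 and from -0.17 to 0.30 for BIK. In A549 they ran from -0.13 to 0.13 for BCL2L11, from -0.09 to 0.10 for BCL2L1, from -0.39 to 0.07 for PMAIP1 and from -0.51 to -0.08 for BBC3. Against vehicle, 0 members were called in H820 (3.02% of genes called, and 0 members at an unadjusted p under 0.05) and in A549 (0.216% called, and 4 members at an unadjusted p under 0.05). The fit over all 36 libraries called 2 in A549 against vehicle, PMAIP1 (0.31, adjusted p = 0.0258) and MCL1 (0.13, adjusted p = 0.00963), both higher with MinE07. That fit called 659 of 14572 genes in the same comparison. PMAIP1 was also called in A549 without vehicle replicate 1 (adjusted p = 0.0257), the vehicle library with the highest PMAIP1.

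**Figure D3:**
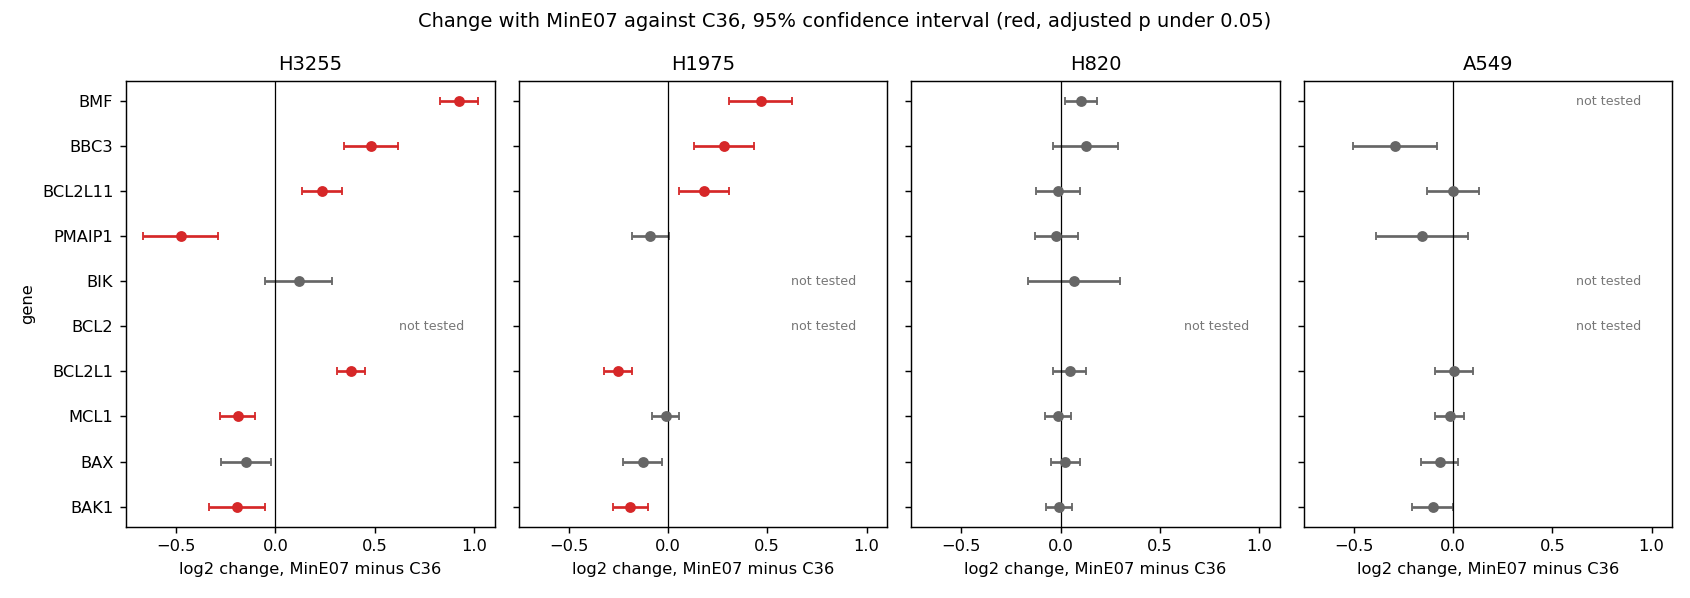
Change of each gene with MinE07 against C36 in the 4 lines, on the log2(FPKM + 0.5) scale. Points are fitted differences, bars 95% confidence intervals, and red marks an adjusted p under 0.05. BMF is the rightmost point in H3255 (0.92) and H1975 (0.47), and BCL2L1 lies on opposite sides of 0 in those lines (0.38 and -0.25).

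C36 was compared with vehicle to measure what the control aptamer did by itself. In A549, 4 of 7 members tested were called, all higher (BBC3, PMAIP1, MCL1 and BAK1), where 6% of all genes were called and 3.62% called higher. The higher share of all calls there was 60.4% as deposited and 46.7% after rescaling by medians of ratios. BBC3 went from 10.8, 10.9 and 10.5 FPKM in vehicle to 14.5, 14.7 and 16.7 with C36, and stood at 12.9, 14.0 and 10.5 with MinE07. The C36 libraries were above both other groups. BBC3 rose by 0.49 against vehicle (log2, SE 0.095, adjusted p = 0.0217).

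PMAIP1 in A549 went from 18.4, 14.0 and 14.7 FPKM in vehicle to 19.4, 22.2 and 23.7 with C36, with 18.8, 19.4 and 20.0 on MinE07. PMAIP1 rose by 0.47 with C36 (log2, adjusted p = 0.033), and vehicle replicate 1 was nearer to the aptamer libraries than to its own group. MCL1 went from 51.2, 51.2 and 53.2 FPKM to 57.0, 57.9 and 58.0 (0.15, adjusted p = 0.0278) and BAK1 from 7.84, 7.25 and 7.15 to 8.62, 8.69 and 9.29 (0.24, adjusted p = 0.0205). All 4 calls sat near the threshold. The count was 0 without C36 replicate 2 or 3, without vehicle replicate 2 or 3, or with no filter on low genes, and 2 without MinE07 replicate 1. PMAIP1 also lost its call without MinE07 replicate 2 or 3, and MCL1 without C36 replicate 1 (adjusted p = 0.0744).

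In the main fits of the other lines few members were called with the control aptamer. In H820 BMF alone fell, by 0.16 (log2, adjusted p = 0.0455), among 9 tested, with 2.85% of all genes called. That call was lost on leaving out any 1 library other than MinE07 replicate 1 (adjusted p up to 0.151), and with no filter, medians of ratios or a fit of all libraries. In H1975 limma called 0 of 8, with 0 at an unadjusted p under 0.05, and 0.233% of all genes. In H3255 it called 0 of 9, with 4 at an unadjusted p under 0.05, and 0.305% of all genes. BCL2L11 (higher) and BCL2L1 (lower) were called in H3255 after rescaling by medians of ratios (adjusted p = 0.0341 and 0.0368). The fit of all 36 libraries called them as well (adjusted p = 0.00723 and 0.0162).

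Whether the response to MinE07 differed between lines was tested directly in a fit of all 36 libraries. Against A549, 6 of 9 members in the fit were called for H3255, BMF among them, where 25.2% of all genes were called. BMF entered this fit only through the lines where it was high: in A549 it was under the level for testing and the pseudocount flattens its change, so its 1.04 mainly restates the change in H3255 and is not read as a difference from A549. For the others the difference in log2 change was 0.78 for BBC3 (adjusted p = 8.61e-06), 0.38 for BCL2L1 (adjusted p = 1.22e-06), 0.24 for BCL2L11 (adjusted p = 0.0236), -0.17 for MCL1 (adjusted p = 0.00355) and -0.32 for PMAIP1 (adjusted p = 0.0402). For BBC3 the A549 value itself was -0.29 (adjusted p = 0.366 within A549), which adds to each BBC3 difference from A549 given here. BBC3 in A549 averaged 10.7 FPKM in vehicle, 15.3 with C36 and 12.5 with MinE07. MinE07 was thus below C36 there, but its mean was above that of vehicle. Line differences in the response against vehicle were not tested. BAX differed between H3255 and A549 only without H3255 MinE07 replicate 3 (-0.16, adjusted p = 0.0449). For H1975 against A549, 3 members were called, where 12.6% of all genes were called: BMF (0.59, with the same limit), BBC3 (0.58, adjusted p = 0.00102) and BCL2L1 (-0.26, adjusted p = 0.000627). H820 differed from A549 in 0 of 9, with 2 at an unadjusted p under 0.05 (BBC3, and BMF with that limit) and 0.323% of all genes called. BBC3 was called there without A549 MinE07 replicate 2 (0.51, adjusted p = 0.0414).

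The L858R lines also differed from each other, in 4 of 9 members against 15.2% of all genes. BCL2L1 had the largest such difference, 0.63 on the log2 scale (H3255 minus H1975, 95% confidence interval 0.53 to 0.74, adjusted p = 1.10e-10). BMF responded more in H3255 (0.46, adjusted p = 6.05e-05), while PMAIP1 (-0.39, adjusted p = 0.0206) and MCL1 (-0.18, adjusted p = 0.00443) went lower there. The pseudocount of 0.5 compresses changes of low genes, which bears on BMF in H1975 at 2.87 FPKM and in A549 at 0.348 FPKM with C36. BBC3 (0.20, adjusted p = 0.279) and BCL2L11 (0.05, adjusted p = 0.726) were not called between H3255 and H1975. The PMAIP1 differences were the least stable: against A549 the call ended without any 1 of 8 libraries (C36 replicates 1 and 2 and MinE07 replicates 2 and 3 of A549, C36 replicates 1 and 3 and MinE07 replicates 1 and 2 of H3255). Against H1975 it ended without H1975 MinE07 replicate 1, H3255 C36 replicate 3 or H3255 MinE07 replicate 1 (adjusted p up to 0.0729). The BCL2L11 difference from A549 ended without A549 C36 replicate 2, A549 MinE07 replicate 1 or H3255 MinE07 replicate 2 (adjusted p up to 0.0706).

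The balance of the family was described as the log2 ratio of summed FPKM of the 7 pro-apoptotic genes (BH3-only and effectors) to that of the 3 anti-apoptotic genes, with no test. Related genes outside the list, such as BAD, BID, BCL2L2 and BOK, were not summed. For the 10 listed genes the ratio was positive only in H820, at 0.46 ± 0.031 in vehicle (SD, n = 3). It was -0.54 ± 0.022 in A549, -0.80 ± 0.029 in H1975 and -0.86 ± 0.021 in H3255. H820 had the lowest BCL2L1 of the 4 lines and, after A549, the next highest BAX. Against vehicle, the H3255 ratio stood 0.18 higher with C36 and 0.25 higher with MinE07, both without overlap. The same differences in A549 were 0.22 and 0.11, also without overlap. With MinE07 the ratio was -0.61 ± 0.066 in H3255, against -0.68 ± 0.017 with C36, and those libraries overlapped. In H1975 it was -0.72 ± 0.0098 against -0.77 ± 0.017 without overlap, in H820 0.44 ± 0.024 against 0.42 ± 0.023 with overlap, and in A549 -0.43 ± 0.037 against -0.32 ± 0.063 without overlap.

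Counting only the 5 listed BH3-only genes in the numerator gave a clearer separation in H3255. BAD and BID averaged 34.0 and 27.5 FPKM over the 9 H3255 libraries and were not summed. The separation therefore holds for the listed genes only. In H3255 the log2 ratio was -1.94, -1.87 and -1.86 in vehicle, -1.67, -1.65 and -1.70 with C36, and -1.33, -1.24 and -1.27 with MinE07. The groups did not overlap. MinE07 stood 0.39 above C36 and 0.61 above vehicle, and C36 stood 0.21 above vehicle. In H1975 the MinE07 libraries (-1.90, -1.97 and -1.91) stood 0.20 above C36 and 0.15 above vehicle, again with no overlap. In A549 the highest ratio was with C36, at -2.03 ± 0.12, with -2.22 ± 0.051 for MinE07 and -2.51 ± 0.093 for vehicle. In H820 the MinE07 mean differed from C36 by 0.033. In H3255 the anti-apoptotic sum was also higher with MinE07 than with C36, and the effector sum was 40.1 ± 3.82 FPKM against 44.9 ± 1.16, so the ratio with all 7 genes differed by 0.072. The H3255 ratio of all 7 genes ran from -0.67 to -0.54 in the MinE07 libraries, with MinE07 replicate 3 the highest.

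**Figure D4:**
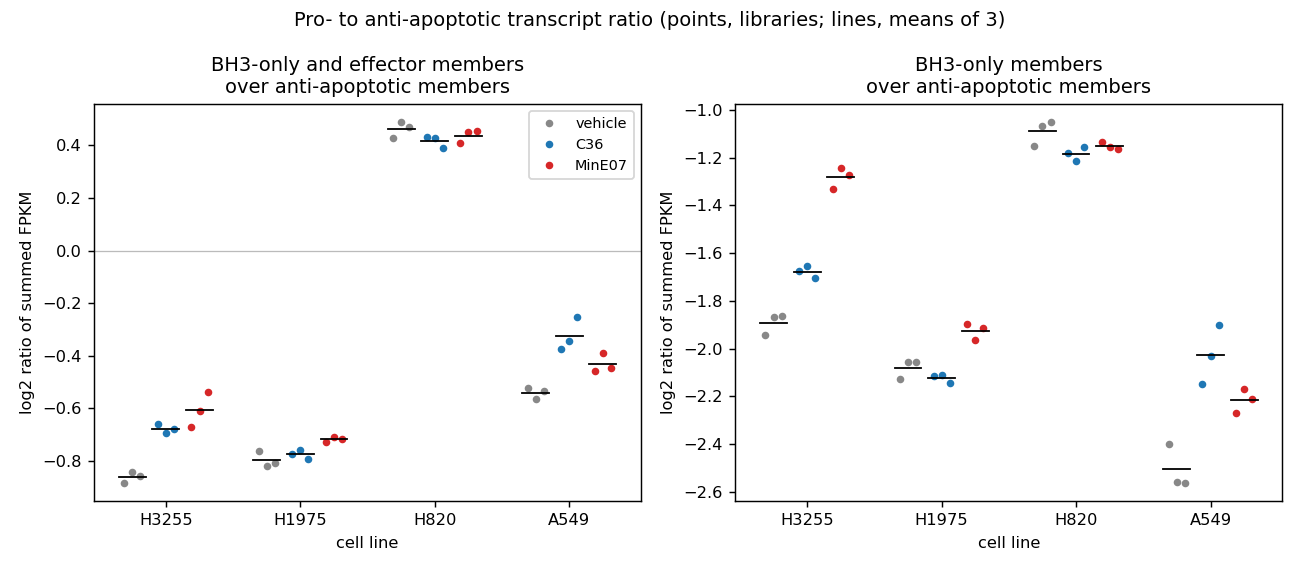
Log2 ratio of summed FPKM of the listed pro-apoptotic to the listed anti-apoptotic genes in each library, by line and treatment. Points are libraries and short lines are means of 3. Left, BH3-only and effector genes in the numerator; right, BH3-only genes alone, on another axis range. On the right the H3255 MinE07 libraries stand 0.39 above those with C36, while on the left the same groups overlap and differ by 0.072.

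The 5 genes whose profile over the 36 libraries was most like that of BMF, after each line's mean log2 value was subtracted, were KLHL24 (Pearson r = 0.963), CLU (0.953), UBE2H (0.950), SELENBP1 (0.943) and ALAD (0.943), out of 10994 genes compared. KLHL24, for example, went from 1.51 FPKM with C36 to 3.68 with MinE07 in H3255 and from 6.49 to 8.98 in H1975. For BCL2L11 they were TRIM25 (0.885), RRAGC (0.866), ZNF740 (0.858), KLHL24 (0.841) and NR1D2 (0.839), out of 10993. Within the family, BMF had r = 0.800 with BCL2L11, 0.768 with BBC3, 0.262 with BCL2L1 and -0.449 with PMAIP1. These values describe the 36 libraries, which share treatments and lines, and carry no test.

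The other genes of the apoptosis pathway were followed as 5 lists with 49 genes in all. Beyond the 4 called genes with the largest change in each line, the genes named from these lists were chosen after their values were seen. With MinE07 against C36, 19 of 42 tested were called in H3255 (6 higher and 13 lower) and 12 of 41 in H1975 (7 higher and 5 lower), beside the 36.7% and 19.9% of all genes given above. In H820 limma called 0 of 43, with 3 at an unadjusted p under 0.05, and in A549 0 of 44, with 9 at that level. The share of all genes at that level was not computed, so no excess is read from these counts. Of the 13 other BCL2-related genes, 4 of 8 tested fell in H3255: BCL2L2, a guardian, from 15.0 to 12.8 FPKM (-0.23, adjusted p = 0.00217), BCL2L12, BNIP3 (-0.38, adjusted p = 0.000207) and BNIP3L. In H1975 BNIP3, a mitochondrial protein induced by low oxygen, fell as well (-0.28, adjusted p = 0.00216).

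Of the apoptosome and caspase list, 4 of 9 were called in H3255. CASP8, the initiator caspase of death receptors, fell from 12.3 FPKM with C36 to 8.90 with MinE07 (-0.45, adjusted p = 1.66e-05), and CYCS, cytochrome c, fell by 0.35 (adjusted p = 0.000131), while the executioner CASP6 rose by 0.20 (adjusted p = 0.00141). In H1975, 4 of 9 were called, 3 of them higher, among them CASP10 (0.34, adjusted p = 0.0142). Of the inhibitor of apoptosis list, 1 of 6 tested fell in each line, in both cases BIRC5 (survivin, also a mitotic protein), by 0.26 in H3255 (adjusted p = 0.000339) and 0.16 in H1975 (adjusted p = 0.013).

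The death receptor list had 7 of 9 genes called in H3255. TNFRSF1A, a TNF receptor, fell from 74.0 FPKM with C36 to 49.0 with MinE07 (-0.59, adjusted p = 5.93e-06). The receptors FAS, TNFRSF10A and TNFRSF10B fell too, by 0.21, 0.32 and 0.24, while CFLAR, an inhibitor of CASP8 activation, rose by 0.28 (adjusted p = 0.00058), as did TRADD and RIPK1. In H1975, 3 of 9 were called and all rose: TNFSF10, which encodes the ligand TRAIL, from 0.852 to 1.88 FPKM (0.81, adjusted p = 0.00168), CFLAR and TRADD.

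Among 11 regulators of BH3-only genes and MCL1, 3 of 10 tested were called in H3255. FOXO3, a transcription factor restrained by AKT, rose from 6.03 FPKM with C36 to 7.21 with MinE07 (0.24, adjusted p = 0.00352), TP73 rose (0.17, adjusted p = 0.0413), and DYNLL1, a dynein light chain that binds BIM, fell by 0.10 (adjusted p = 0.0472). In H1975, 1 of 9 was called, E2F1 (-0.29, adjusted p = 0.00181), and FOXO3 was at 10.4 and 11.0 FPKM (0.07, adjusted p = 0.174). EGFR, the target of the aptamer, fell from 423 FPKM with C36 to 341 with MinE07 in H3255 (-0.31, adjusted p = 3.29e-05) and was not called in H1975 (25.7 against 23.8 FPKM, adjusted p = 0.138). Among the lineage markers in H3255, 2 of 3 lung epithelial genes rose and 2 of 6 epithelial genes fell with MinE07, NKX2-1 by 0.35 (adjusted p = 6.87e-05) and KRT18 from 428 to 329 FPKM (adjusted p = 2.63e-05) among them. NKX2-1 also rose in H1975, by 0.37 (adjusted p = 0.00118), and the part of cell state in the family's changes was not tested.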

How the data were processed

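The authors deposited 1 FPKM table per library. Per the labels' protocols, these came from poly-A selected, stranded mRNA libraries read in pairs of 100 bases. The submitters' processing notes name HISAT2, Cuffdiff and the builds GRCh38.p12 and hg38, with no versions or roles. The 36 libraries were grouped by line and treatment from the labels, which speak of independent experiments. Of 68271 entries per table, 1874 without a gene name and 31 entries of 15 repeated names were left out, leaving 66366 genes. No pair of the 630 pairs of libraries held identical values.

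Each line was fitted with limma 3.58.1 (trend and robust options, statmod 1.5.0, R 4.3.3) on log2(FPKM + 0.5) over genes averaging 1 FPKM or more, and p-values were adjusted by the Benjamini-Hochberg method over all genes tested. A gene is called at an adjusted p under 0.05, two-sided, and all changes are on that log2 scale. Shares of all genes refer to such calls. Counts at an unadjusted p under 0.05 have no such share beside them, and no excess is read from them. Differences between lines were fitted over all 36 libraries, and starting levels over the 12 vehicle libraries. The fits were also run on simulated data with 200 changed genes and independent normal noise. That run checks the code, and cannot show whether the noise of these libraries follows the same model. Summaries and figures used Python 3.11.15, pandas 2.3.3, numpy 2.4.6 and matplotlib 3.10.9. Promoter windows came from RefSeq (GRCh38.p14), which gave 10 windows for 8 of the 10 genes, with MCL1 and BIK unmatched.

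Alternatives were a pseudocount of 0.1, no filter, medians of ratios scaling, a replicate block, a fit of all 36 libraries, 2 other forms of the balance, and leaving out each library in turn. All 10 members were named, with up to 4 called genes of largest change per line from the other lists and the 5 most like genes for BMF and BCL2L11. The members and lists were chosen with earlier results of these data known. FPKM holds no counts, so counting error is not given. Relative depth, 0.590 to 1.38, was read from the steps between low values.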

Additional observations from a re-analysis of the deposited data

Results flagged for a closer look

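The response to MinE07 against C36 was called as differing between lines for the members below, each by a limma test of the difference itself over 36 libraries, on the log2(FPKM + 0.5) scale. BMF differed by 1.04 between H3255 and A549, by 0.59 between H1975 and A549 and by 0.46 between H3255 and H1975. In A549 BMF lay between 0.243 and 0.352 FPKM, too low to test within that line, and passed the filter only through the other lines, so its values against A549 are not read as differences from it. BBC3 differed by 0.78 between H3255 and A549 and by 0.58 between H1975 and A549. In A549 BBC3 averaged 10.7 FPKM in vehicle, 15.3 with C36 and 12.5 with MinE07, and the lower level against C36 adds to both values. BCL2L11 differed by 0.24 between H3255 and A549. PMAIP1 differed by -0.32 between H3255 and A549 and by -0.39 between H3255 and H1975. BCL2L1 differed by 0.38 between H3255 and A549, by -0.26 between H1975 and A549 and by 0.63 between H3255 and H1975. MCL1 differed by -0.17 between H3255 and A549 and by -0.18 between H3255 and H1975. The contrasts share lines, so these values are not independent of one another.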

How the results depend on the processing

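Of 3744 values of single members under the alternatives, 3597 kept their side of the threshold, 106 lost a call and 40 gained one. In 1 a called value turned: BCL2L11 between vehicle-treated H1975 and A549, -0.0084 under medians of ratios. A change of sign was counted only where either fit called the member, so uncalled values that changed sign are among the 3597. With no filter on low genes, 3 members were called in H1975 for MinE07 against C36 and 3 against vehicle (5 in each as reported), and 0 for C36 against vehicle in A549 (4 as reported) and H820 (1 as reported). Over all genes, the H1975 fit with no filter called 1740 and 2073 of 40667 in the same order. Under medians of ratios, C36 against vehicle gave 2 in H3255 (0 as reported), with 150 of 13412 genes called, and 0 in H820. The fit of all 36 libraries gave 2 for C36 against vehicle in H3255, with 369 of 14572 genes called, and 0 in H820. For MinE07 against vehicle it gave 3 in H1975, with 3754 of 14572 genes called, and 2 in A549 (0 as reported), with 659 of 14572. The balance difference between MinE07 and C36 with BH3-only genes alone was 0.39 in H3255, 0.20 in H1975 and -0.19 in A549, and from means of log2 values 0.19 in H1975. The cause of these shifts was not tested. With no filter, more genes enter both the fit and the adjustment, and these were not separated.

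Leaving out 1 library gave 3 to 6 members called for MinE07 against C36 in H1975, 3 to 4 against vehicle in H1975 (3 without MinE07 replicate 2 or 3 or vehicle replicate 2), and 0 to 1 against vehicle in A549. For C36 against vehicle it gave 0 to 1 in H3255, 0 to 1 in H820 and 0 to 4 in A549. The difference between H820 and A549 had 0 to 1, and the balance difference ranged from 0.038 to 0.10 in H3255, from 0.049 to 0.065 in H1975, from 0.0062 to 0.033 in H820 and, for A549, from -0.13 to -0.071.

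Replicate numbers were not taken as pairs: of 9 same-numbered pairs per line, 3, 1, 4 and 0 correlated above 0.1 in H3255, H1975, H820 and A549, although 4, 1, 5 and 1 of the 9 libraries correlated best with their own number, a hint from the data in H820 and H3255. With a replicate block, 7 and 4 members were called for MinE07 against C36 in H3255 and H1975 (BCL2L11 lost in H1975, adjusted p = 0.0658) and 6 and 4 against vehicle (PMAIP1 and MCL1 gained in H3255, BAK1 lost in H1975), and 0 for C36 against vehicle in H820 and in A549. Absolute depth is unknown, which limits what can be said of BCL2 in every line and of BMF and BIK in A549.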
